A study of Mus musculus with 6 samples.

Results

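The TNF superfamily is a set of signalling ligands (gene symbols beginning *Tnfsf*) and of the receptors that bind them (gene symbols beginning *Tnfrsf*). Every gene of the deposited table whose symbol was *Tnfsf* or *Tnfrsf* followed by a number was taken. These were 32 of 55421 genes, namely 11 ligand genes, 20 receptor genes and *Tnfsf13os*, a non-coding transcript antisense to *Tnfsf13*. The rule used the gene symbol and no measured value.

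Splenic B cells of C57BL6/J mice, male and female, were cultured for 24 h in the presence of 5 μg/ml LPS together with 5 ng/ml IL-4, stimuli that drive division and switching to IgG1. GFP+ cells, in which the cre recombinase had been active on a RosamT/mG reporter, were then sorted. The WT group carried CD21-cre alone and the hnRNPL-deficient group was hnRNPL F/F CD21-cre, so cre and reporter were present in both. CD21-cre acts mostly in mature B cells, and polyA RNA was sequenced as 1 library per mouse, from 3 WT and 3 hnRNPL-deficient mice. hnRNPL is a nuclear RNA-binding protein that binds CA-rich RNA and regulates splicing, and the comparison asks how RNA levels differ in activated B cells that lack it.

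Most ligands of the family are membrane proteins that act as trimers and can be shed, and their receptors signal through TRAF adaptors to NF-κB and MAP kinases. Receptors with a death domain can also recruit FADD and caspase-8 and start apoptosis. In B cells the family is known for BAFF and APRIL, which sustain mature B cells and plasma cells through BAFF-R, TACI and BCMA, for CD40, which receives help from T cells, and for costimulatory ligands such as OX40L, CD30L and 4-1BBL, which engage receptors on activated lymphocytes.

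Libraries held between 40395186 and 75180749 reads on genes, and between 24009 and 26283 genes had at least 1 read. *Hnrnpl* itself had 24371, 25579.7 and 24174 normalized counts (reads divided by a library size factor) in WT libraries 1, 2 and 3 and 2178, 1519 and 1297 in hnRNPL-deficient libraries 1, 2 and 3, a log2 fold change of -3.93 (limma, standard error 0.173, adjusted p = 2.2e-05). The B cell markers were abundant in both groups. *Cd79a*, a chain of the B cell receptor complex, had 17288 to 19661 normalized counts in WT and 19149 to 24298 in hnRNPL-deficient libraries, and *Pax5*, the factor that maintains B cell identity, had 130876 to 204678 and 131038 to 189706. *Xist* was at 98507 in WT library 3 and 98219 in hnRNPL-deficient library 2 and at most 7.21 in the other libraries, so each group held libraries with high and with low *Xist*.

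In hnRNPL-deficient cells 2 ligands rose by a large amount, *Tnfsf8* (CD30L) and *Tnfsf4* (OX40L), and 1 ligand, *Tnfsf9* (4-1BBL), fell. Per kb of exon, *Tnfsf8* went from place 7 to place 1 of the 11 ligands and *Tnfsf4* from place 9 to place 3. *Tnf* and *Lta*, family ligands outside the symbol rule, were higher still in hnRNPL-deficient cells, at 1588 and 437 normalized counts per kb. Among the receptors 3 rose, *Tnfrsf10b* (DR5), *Tnfrsf26* and *Tnfrsf18* (GITR), and 1 fell, *Tnfrsf13c* (BAFF-R). Of the 31 ligands and receptors, 22 had a mean of at least 10 normalized counts over the 6 libraries and were tested, 8 of 11 ligands and 14 of 20 receptors. A gene was called at an adjusted p under 0.1 and a change of at least 1.5-fold. By that measure 3 of 8 ligands and 4 of 14 receptors were called, against 11.4% of the 17640 genes tested. Taken by direction, 5 of 22 were higher, against 7.28% of all genes tested, and 2 of 22 were lower, against 4.08%. The 5 include *Tnfsf4*, which passed the filter only through the hnRNPL-deficient libraries. The median log2 fold change was -0.13 over the 8 ligands and -0.08 over the 14 receptors, beside -0.03 over all genes tested, so the changes lay in single members and the median stayed near that of all genes.

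**Figure D1:**
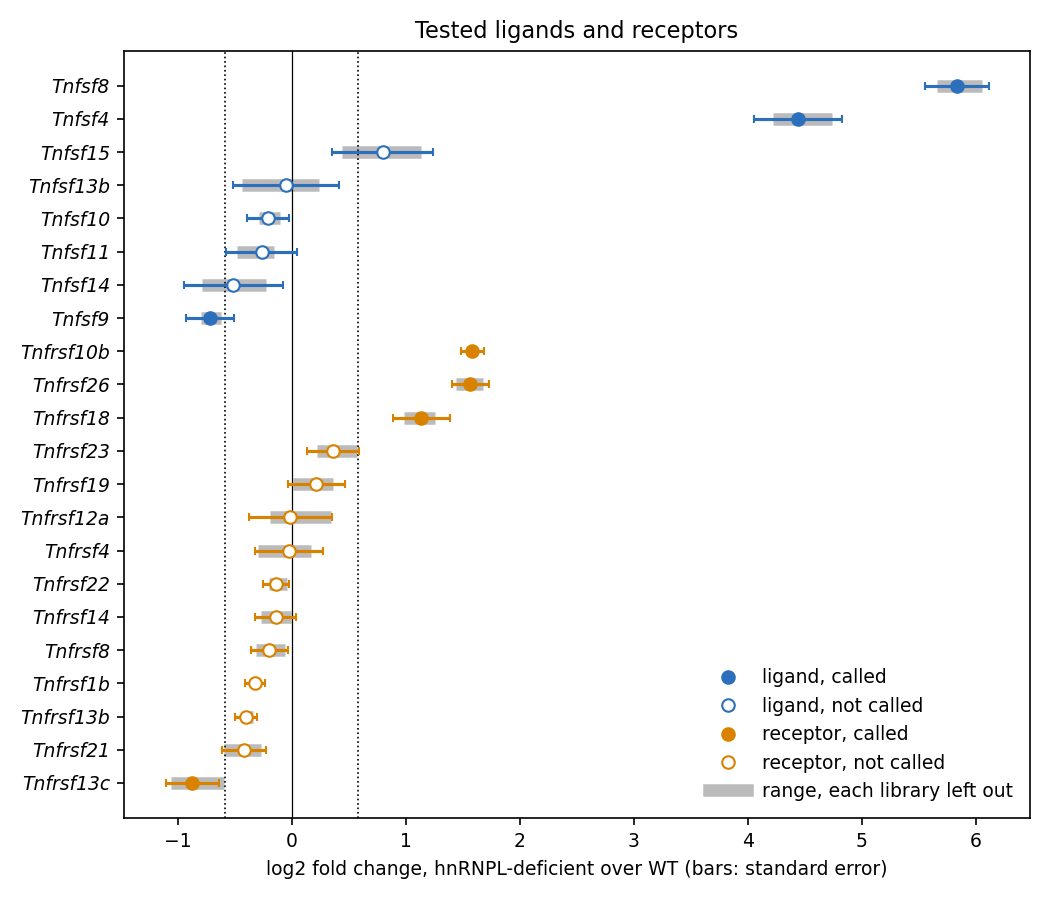
Log2 fold change of hnRNPL-deficient over WT for the 22 tested members, ligands in blue and receptors in orange, filled where called. Thin bars are the standard error of the limma fit, grey bars the range over fits that each omit 1 library, and dotted lines mark 1.5-fold. *Tnfsf8* at 5.83 and *Tnfsf4* at 4.44 stand far from the other members, of which *Tnfrsf10b* at 1.58 is the next highest.

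The 250 bases before the start of *Tnfsf8*, the ligand with the largest change, and of *Tnfrsf8*, the gene of its receptor CD30, which was not called, are shown side by side (RefSeq, GRCm38.p6, minus strand, 5′ to 3′). The GENCODE model of *Tnfsf8* starts within the stretch. The *Tnfsf8* stretch is chr4:63861285-63861534 and the *Tnfrsf8* stretch is chr4:145315165-145315414. Capitals mark matches to the NF-κB motif and to the AP-1 motif TGANTCA, the binding motifs of transcription factors that act in B cell activation.
Tnfsf8: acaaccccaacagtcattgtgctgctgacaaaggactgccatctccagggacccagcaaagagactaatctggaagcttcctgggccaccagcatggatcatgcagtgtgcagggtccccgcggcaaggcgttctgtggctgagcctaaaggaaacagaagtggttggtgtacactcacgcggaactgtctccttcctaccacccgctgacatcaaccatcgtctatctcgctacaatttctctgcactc
Tnfrsf8: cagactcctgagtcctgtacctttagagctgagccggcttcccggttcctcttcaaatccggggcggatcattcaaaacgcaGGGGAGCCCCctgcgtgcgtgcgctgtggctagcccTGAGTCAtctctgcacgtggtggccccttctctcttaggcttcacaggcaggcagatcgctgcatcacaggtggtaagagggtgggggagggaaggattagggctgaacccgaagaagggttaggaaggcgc
The search covered both strands of windows reaching 50 bases past the start, and also the STAT6 motif, a p53 half-site and TATAAA. *Tnfrsf8* held 1 NF-κB match, whose first base lies at -168 from the start, and 1 AP-1 match at -132. None of the 5 motifs was found in the *Tnfsf8* window. Of 32851 promoter windows of the same length, 4.51% held the NF-κB motif, 7.81% AP-1, 6.95% STAT6, 8.36% the p53 half-site and 13.6% TATAAA. The windows of *Tnfrsf18* and *Tnfrsf13c* also held none of the 5 motifs, and a match or its absence is only a description of these letters. A window was at hand for 24 of the 32 genes. *Tnfsf4*, *Tnfsf9*, *Tnfrsf10b* and *Tnfrsf26* were not among them.

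*Tnfsf8* (ENSMUSG00000028362.2, chromosome 4, 63831308 to 63861347, minus strand) encodes CD30L, which binds CD30. It had 8.12, 14.7 and 9.94 normalized counts in WT libraries 1 to 3 and 793, 552 and 657 in hnRNPL-deficient libraries 1 to 3. Every hnRNPL-deficient library was far above every WT library, in which the gene rested on 7, 17 and 13 reads. The mean went from 10.9 ± 3.40 to 667 ± 121 (SD, n = 3 mice each), a ratio of 61.1, and the log2 fold change on the log2(normalized count + 1) scale was 5.83 (limma, standard error 0.279, adjusted p = 3.2e-05), which ranked 2 among all 17640 genes tested. In fits that each omitted 1 library it lay between 5.66 and 6.05.

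*Tnfsf4* (ENSMUSG00000026700.4, chromosome 1, 161395409 to 161418410, plus strand) encodes OX40L, a costimulatory ligand that antigen-presenting cells show to OX40 on activated T cells. It had 2.32, 1.73 and 4.59 normalized counts in WT and 77.5, 76.7 and 83.6 in hnRNPL-deficient libraries. The hnRNPL-deficient libraries lay close together and none came near the WT values, which rest on 10 reads in all. The mean rose from 2.88 ± 1.51 to 79.3 ± 3.76, with a log2 fold change of 4.44 (limma, standard error 0.385, adjusted p = 4.8e-04). Its WT mean is below the filter of 10, so it was tested only because its values in hnRNPL-deficient libraries are high, and it would not have been tested had it not differed. Without any 1 library it stayed between 4.22 and 4.74. The value of so low a gene in WT depends on the added pseudocount, and over all alternatives the log2 fold change ranged from 3.44 to 4.78.

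*Tnfsf9* (ENSMUSG00000035678.8, the 4-1BB ligand, chromosome 17, 57105325 to 57107757, plus strand) went the other way. It had 168, 142 and 139.9 normalized counts in WT and 92.9, 101 and 79.5 in hnRNPL-deficient libraries. All 3 hnRNPL-deficient libraries were below all 3 WT libraries. Its log2 fold change was -0.71 (limma, standard error 0.210, adjusted p = 0.0627). The call was lost whichever library was left out, with an adjusted p of 0.102 to 0.156, while the log2 fold change stayed between -0.79 and -0.62. Over all alternatives the adjusted p ranged from 0.0328 to 0.156.

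The other 5 tested ligands were not called, and their groups overlapped. *Tnfsf10* (TRAIL, which binds death receptors) had 220.5, 276 and 218 normalized counts in WT and 207, 181 and 229 in hnRNPL-deficient libraries (log2 fold change -0.21, limma adjusted p = 0.509). *Tnfsf11* (RANKL, the osteoclast differentiation factor) had 44.1, 44.1 and 27.5 in WT and 31.6, 28.3 and 34.3 in hnRNPL-deficient libraries (log2 fold change -0.26, adjusted p = 0.621). Both ligands thus had similar values in the groups, with WT library 2 the highest for *Tnfsf10*. *Tnfsf13b* (BAFF, the survival factor of mature B cells) had 16.2, 7.78 and 21.4 in WT and 12.6, 10.1 and 19.2 in hnRNPL-deficient libraries. *Tnfsf14* (LIGHT, which binds HVEM and the lymphotoxin β receptor) had 10.4, 19.0 and 19.1 in WT and 14.4, 12.1 and 6.85 in hnRNPL-deficient libraries. *Tnfsf15* (TL1A, a ligand of DR3) had 10.4, 13.8 and 9.18 in WT and 33.4, 12.1 and 19.2 in hnRNPL-deficient libraries. These last 3 genes had few reads, their groups overlapped, and their adjusted p was at least 0.284 (limma), with a log2 fold change of 0.80 for *Tnfsf15*, -0.51 for *Tnfsf14* and -0.05 for *Tnfsf13b*.

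Below the filter, *Tnfsf18* (GITRL, the ligand of GITR) had 3.48, 11.2 and 7.65 normalized counts in WT and 9.02, 8.08 and 17.8 in hnRNPL-deficient libraries, which overlapped. *Tnfsf12* (TWEAK) was above 0 in 1 library, at 2.74. *Tnfsf13* (APRIL) was at 0 in all 6 libraries, where a count of 0 allows up to 3 reads, or 2.29 to 4.11 normalized counts depending on the library. Of the 100-base windows of their transcripts, 44.9% for *Tnfsf12* and 54.2% for *Tnfsf13* are shared with the read-through gene *Tnfsfm13*, to which their reads may not have been assigned uniquely, so that low values for both are uncertain. *Tnfsf13os* had 4.11 to 11.6 normalized counts over the 6 libraries.

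**Figure D2:**
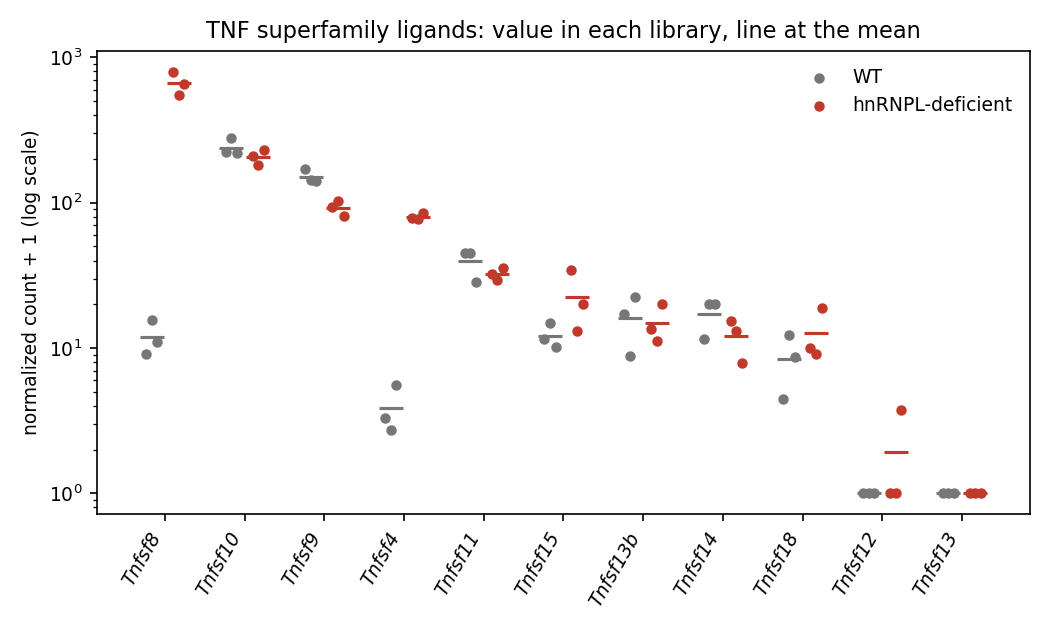
Normalized count + 1 (log scale) of the 11 ligands in each WT (grey) and hnRNPL-deficient (red) library, with a line at the mean. The hnRNPL-deficient points of *Tnfsf8* (552 to 793) and *Tnfsf4* (76.7 to 83.6) are clear of the WT points, those of *Tnfsf9* lie just below them, and the remaining ligands overlap between the groups or are at 0 in all but 1 library.

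Divided by exon length, the order of the ligands differed between the groups. In WT, *Tnfsf9* led with 116 ± 12.3 normalized counts per kb and made up 57.8% of the summed per-kb level of the 11 ligands, followed by *Tnfsf10* at 45.2 ± 6.21 and *Tnfsf11* at 17.3 ± 4.28. *Tnfsf18*, *Tnfsf15*, *Tnfsf8*, *Tnfsf13b* and *Tnfsf4* lay between 3.61 and 1.56 per kb, where neighbours in the order were within 1 SD of each other. In hnRNPL-deficient cells *Tnfsf8* came first at 175 ± 31.8 per kb, 48.3% of the sum, then *Tnfsf9* at 70.6 ± 8.40. *Tnfsf4* at 43.0 ± 2.04 and *Tnfsf10* at 39.1 ± 4.58 followed. Their ranges over mice overlapped, though *Tnfsf4* was the higher in every hnRNPL-deficient library. On this scale CD30L took place 7 of the 11 ligands in WT and place 1 without hnRNPL.

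Among the 14 tested receptors, the largest rise was that of *Tnfrsf10b* (ENSMUSG00000022074.6, chromosome 14, 69767472 to 69784411, plus strand). It encodes DR5, the death receptor for TRAIL in the mouse and a known p53 target. It had 605, 631 and 598 normalized counts in WT and 1827, 1851 and 1826 in hnRNPL-deficient libraries. The libraries within each group were nearly equal and the groups lay far apart. The means were 611 ± 17.5 in WT and 1835 ± 13.9 without hnRNPL, which gave 1.58 as log2 fold change (limma, standard error 0.104, adjusted p = 1.3e-04). It stayed between 1.57 and 1.61 without any 1 library.

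*Tnfrsf26* (chromosome 7, 143607659 to 143628722, minus strand) is a mouse receptor without a death domain that lies beside the decoy TRAIL receptor genes *Tnfrsf22* and *Tnfrsf23*. It had 547, 395 and 473 normalized counts in WT and 1459.6, 1194 and 1527 in hnRNPL-deficient libraries, with no overlap. The log2 fold change was 1.57 (limma, standard error 0.161, adjusted p = 0.0011). Its neighbours, 6.08 kb away and a further 16.1 kb on, were not called. *Tnfrsf22* had 2128, 1760.4 and 1715 in WT and 1717, 1669 and 1675 in hnRNPL-deficient libraries, and *Tnfrsf23* had 212, 131 and 145 in WT and 223, 204 and 189 in hnRNPL-deficient libraries. The groups overlapped for both, with log2 fold changes of -0.14 and 0.36 (limma adjusted p = 0.468 and 0.341). Of the 100-base windows of *Tnfrsf23*, 9.31% are also found in *Tnfrsf22*. Of those of *Tnfrsf22*, 15.8% are found in *Tnfrsf23* or in other genes, *Slc25a20* among them. The values of both are uncertain to that extent. No window of *Tnfrsf26* was shared.

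*Tnfrsf18* (GITR, a costimulatory receptor best known on regulatory T cells, chromosome 4, 156026164 to 156028895, plus strand) had 61.5, 52.7 and 46.6 normalized counts in WT and 147, 113 and 100.1 in hnRNPL-deficient libraries. All hnRNPL-deficient libraries were above all WT libraries. The log2 fold change was 1.14 (limma, standard error 0.251, adjusted p = 0.0241), and without WT library 3 it was 1.04 with an adjusted p of 0.102, which ended the call (0.00814 to 0.102 over all alternatives). *Tnfrsf4* (OX40), whose gene lies 9.55 kb from *Tnfrsf18*, had 70.8, 117 and 136 in WT and 81.1, 107 and 123 in hnRNPL-deficient libraries. These overlapped throughout, with a log2 fold change of -0.02 (limma adjusted p = 0.968).

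BAFF-R and TACI, receptors of BAFF and, for TACI, also of APRIL, were by far the most abundant receptors of the family. *Tnfrsf13c* (BAFF-R, chromosome 15, 82221743 to 82224369, minus strand), the main survival receptor of mature B cells, had 35825, 18795 and 21540.3 normalized counts in WT and 13929, 10942 and 15553 in hnRNPL-deficient libraries. WT library 1 stood above the other WT libraries, and all hnRNPL-deficient libraries were below all WT libraries. The log2 fold change was -0.87 (limma, standard error 0.234, adjusted p = 0.0478), the call was lost without hnRNPL-deficient library 2 (adjusted p = 0.125, and 0.00593 to 0.127 over all alternatives), and the smallest size, without WT library 1, was -0.59. *Tnfrsf13b* (TACI, a receptor of BAFF and APRIL) had 26411, 23677 and 23224 in WT and 19394, 17453 and 18675 in hnRNPL-deficient libraries. Its groups did not overlap either, but the log2 fold change of -0.40 (limma adjusted p = 0.0342) was under 1.5-fold, so it was not called. BCMA (*Tnfrsf17*), the receptor of plasma cells, was at 0 in WT and reached at most 2.74 normalized counts in hnRNPL-deficient libraries.

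*Tnfrsf1b* (TNFR2, the TNF receptor without a death domain) had 5821, 5631 and 5529.8 normalized counts in WT and 4335, 4672 and 4553 in hnRNPL-deficient libraries. Its groups were apart, and the log2 fold change of -0.33 (limma adjusted p = 0.0466) was also under 1.5-fold. The other TNF receptor, *Tnfrsf1a* (TNFR1, which carries a death domain), reached at most 2.59 normalized counts in any library. *Tnfrsf21* (DR6, a death domain receptor) had 948, 1443 and 1292 in WT and 733, 997 and 1010.2 in hnRNPL-deficient libraries. WT library 1 fell within the hnRNPL-deficient range, and the log2 fold change was -0.42 (limma adjusted p = 0.198), while without WT library 1 it was -0.59 with an adjusted p of 0.0735 and passed both thresholds (0.0219 to 0.419 over all alternatives).

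CD30, the receptor of CD30L, was one of the abundant receptors. *Tnfrsf8* had 2927, 2366 and 2072 normalized counts in WT and 2105, 2481 and 1831 in hnRNPL-deficient libraries. The groups overlapped, with a log2 fold change of -0.19 (limma, standard error 0.159, adjusted p = 0.467). *Tnfrsf14* (HVEM, the receptor of LIGHT) had 406, 588 and 478 in WT and 411, 503 and 411 in hnRNPL-deficient libraries (adjusted p = 0.643). *Tnfrsf19* (TROY) had 137, 122 and 84.1 in WT and 119.9, 156 and 118 in hnRNPL-deficient libraries (adjusted p = 0.617), and *Tnfrsf12a* (Fn14, the receptor of TWEAK) had 36.0, 50.1 and 55.8 in WT and 27.9, 59.6 and 58.9 in hnRNPL-deficient libraries (adjusted p = 0.988). The groups of all 3 overlapped.

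Of the 22 tested members, 9 had groups that did not overlap, 3 of 8 ligands and 6 of 14 receptors, against 34.0% of all genes tested. Of these 5 were higher, against 17.7%, and 4 lower, against 16.3%. The 9 were the 7 called members with *Tnfrsf13b* and *Tnfrsf1b*. In 13 of 22 the groups overlapped.

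Of the 6 receptors below the filter, *Tnfrsf11b* (osteoprotegerin, a soluble decoy) was at 0 in all libraries, and *Tnfrsf1a*, *Tnfrsf17* and *Tnfrsf25* (DR3) were at most 2.74 in any library. *Tnfrsf9* (4-1BB, the receptor of the *Tnfsf9* product) had 0, 2.59 and 3.06 normalized counts in WT and 2.705, 3.03 and 1.37 in hnRNPL-deficient libraries, which overlapped. *Tnfrsf11a* (RANK, the receptor of RANKL), chosen after its values were seen, had 0, 0 and 0.765 normalized counts in WT and 26.1, 12.1 and 11.0 in hnRNPL-deficient libraries. The groups did not overlap, and the difference rests on 1 read in the 3 WT libraries together and on 37 reads in hnRNPL-deficient libraries 1 and 3 together. Scaled to depth, that is a ratio of 66.9 with an exact 95% interval of 11.3 to 2714, which covers counting error only. With no filter on low values its log2 fold change was 3.75 (limma, standard error 0.570, adjusted p = 0.0029).

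**Figure D3:**
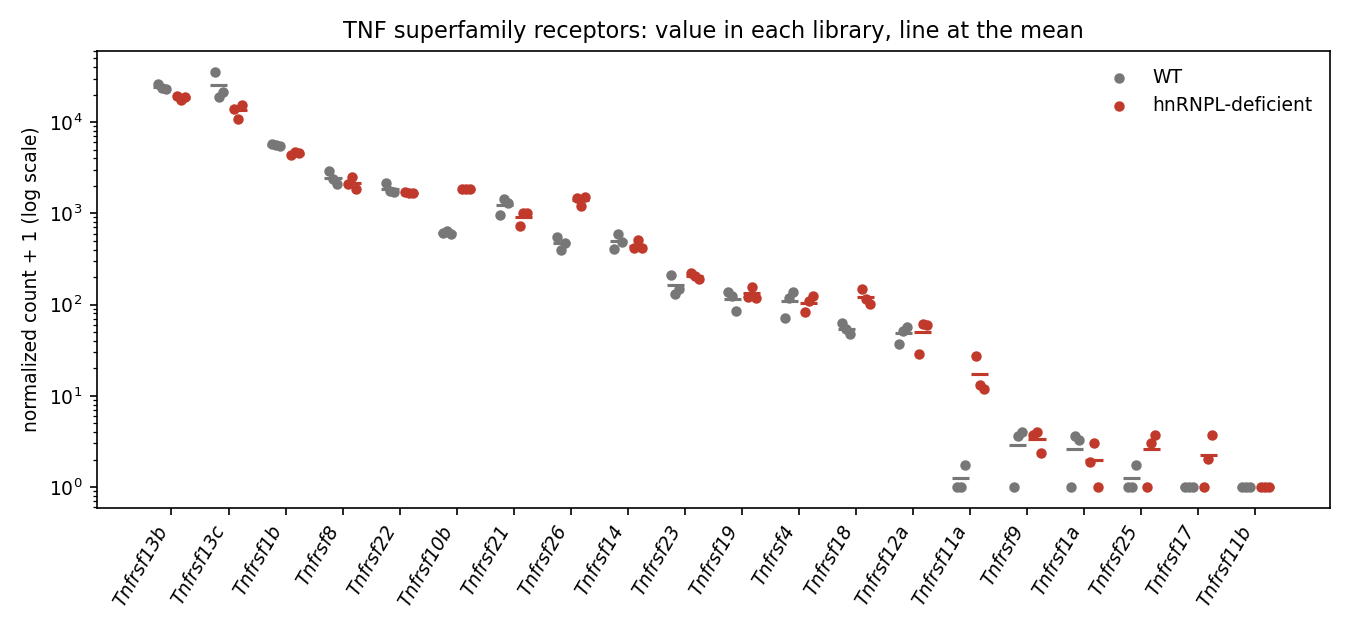
Normalized count + 1 (log scale) of the 20 receptors in each WT (grey) and hnRNPL-deficient (red) library, with a line at the mean, ordered by level. *Tnfrsf13b* and *Tnfrsf13c* lie highest in every library, with 10942 as their lowest value, the red points of *Tnfrsf10b*, *Tnfrsf26* and *Tnfrsf18* lie above the grey ones, and *Tnfrsf11a* is near 0 in WT only.

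Per kb of exon, *Tnfrsf13c* led the receptors in both groups, at 12396 ± 4465 normalized counts per kb in WT and 6579 ± 1142 without hnRNPL, and *Tnfrsf13b* was next at 8617 ± 608 and 6526 ± 346. The ranges of these 2 receptors over mice overlapped in both groups. *Tnfrsf13c* was the higher in every WT library, while in hnRNPL-deficient libraries the order varied. Together with *Tnfrsf1b* (1483 ± 38.7 in WT and 1184 ± 44.8 in hnRNPL-deficient cells) and *Tnfrsf8* (709.7 ± 126 and 618 ± 94.3) these receptors kept the first 4 places. The share of *Tnfrsf13c* in the summed per-kb level of the 20 receptors was 50.1% in WT and 39.0% in hnRNPL-deficient cells, and that of *Tnfrsf13b* was 34.8% and 38.7%. *Tnfrsf26* went from 147 ± 23.5 to 433 ± 54.6 per kb, from place 8 to place 5, and *Tnfrsf10b* from 112 ± 3.22 to 337 ± 2.56, from place 9 to place 7.

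Set beside their partners, the ligands that rose met receptors that were not called. CD30L went from 2.87 ± 0.892 to 175 ± 31.8 normalized counts per kb, while CD30 was at 709.7 ± 126 and 618 ± 94.3. OX40L went from 1.56 ± 0.819 to 43.0 ± 2.04 per kb, while OX40 was at 79.0 ± 24.6 and 76.1 ± 15.6. For GITR and DR5 it was the receptor that rose, with GITRL at 3.61 ± 1.88 and 5.63 ± 2.60 per kb and TRAIL at 45.2 ± 6.21 and 39.1 ± 4.58. The receptor of 4-1BBL was below 1 per kb in both groups, and BAFF, at 2.21 ± 1.00 and 2.03 ± 0.683 per kb, was far below BAFF-R and TACI.

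**Figure D4:**
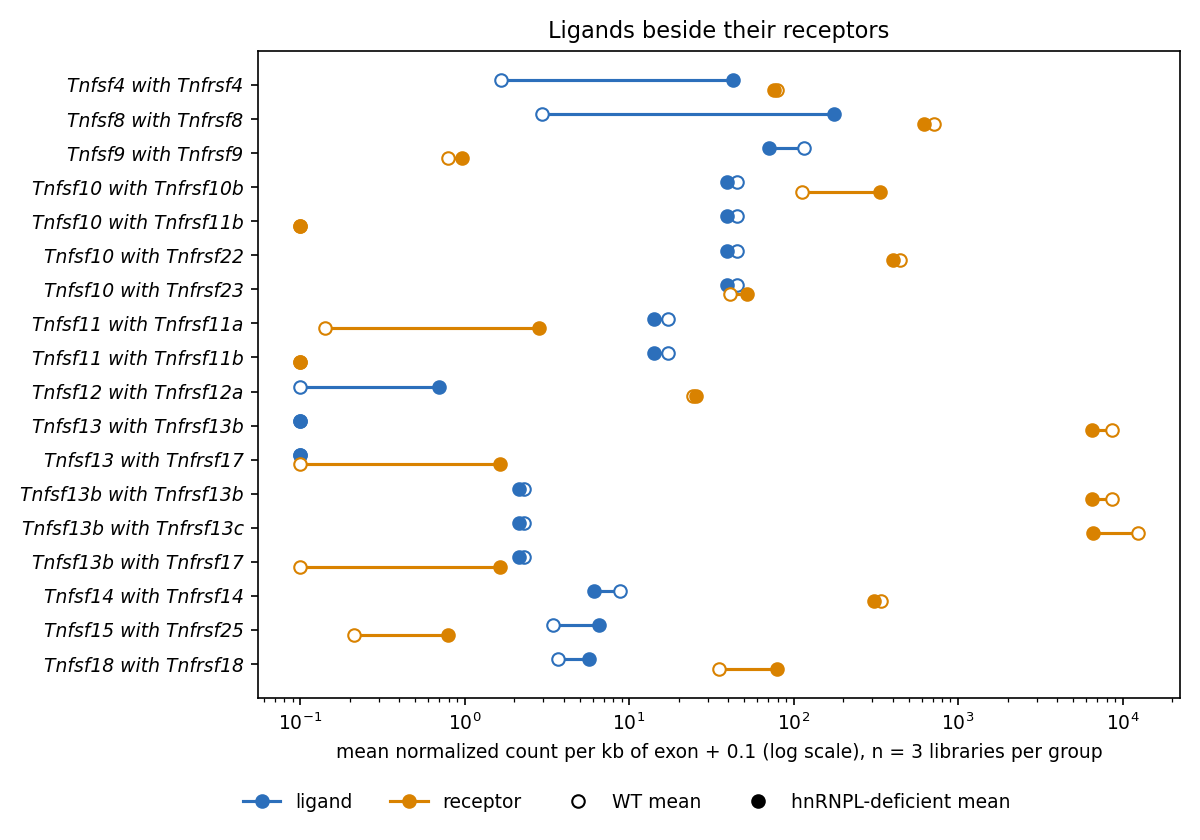
Mean normalized count per kb of exon + 0.1 (log scale, n = 3 libraries per group) for 18 ligand and receptor pairs, ligand in blue and receptor in orange, WT open and hnRNPL-deficient filled. In the pairs of *Tnfsf8* and *Tnfsf4* the long line is the ligand's, and in those of *Tnfrsf10b* and *Tnfrsf18* it is the receptor's.

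Several members lie near each other in the genome. *Tnfsf4* lies 76.2 kb from *Tnfsf18*, which was below the filter and not tested. *Tnfsf8* lies 86.2 kb from *Tnfsf15* and *Tnfsf9* 81.7 kb from *Tnfsf14*, and *Tnfsf15* and *Tnfsf14* were not called. *Cd70*, a family ligand outside the symbol rule, lies between *Tnfsf9* and *Tnfsf14*. *Tnfrsf1b* and *Tnfrsf8* are 20.3 kb apart on chromosome 4. The repeat CACACACA, of the CA-rich kind that hnRNPL binds, was looked for in the longest annotated transcript of each gene, introns excluded. It was present in 3 of the 22 tested members and in 16.7% of 17589 genes tested. None of the 5 members that rose held it, beside 24.9% of 1280 genes called higher with an annotated transcript, and this difference was not tested. *Tnfrsf13c* held it at 31 positions, counting overlaps, and *Tnfrsf1b* and *Tnfrsf19* at 1 each. *Tnfrsf11a*, below the filter, held it at 15 positions.

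Ligands and receptors of the family with other symbols, and the proteins that act after them, were described from a list of 52 genes, of which 44 were tested. Of these 1 rose and 1 fell, against 7.28% and 4.08% of all genes tested, and the median log2 fold change was -0.06. *Fas*, the death receptor of Fas ligand and a known p53 target, had 267, 267 and 240.1 normalized counts in WT and 511, 472 and 583 in hnRNPL-deficient libraries, with no overlap. Its log2 fold change was 1.01 (limma, standard error 0.152, adjusted p = 0.0053). *Lta* (lymphotoxin α) had 1051, 1398 and 1187 in WT and 546, 642 and 625 in hnRNPL-deficient libraries, again with no overlap, and its log2 fold change was -0.996 (limma, standard error 0.144, adjusted p = 0.0044).

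With no fold minimum, 2 of the 44 were higher and 9 lower at an adjusted p under 0.1, against 10.0% and 7.97% of all genes tested. Members of these 11 named here were chosen after their values were seen. *Tnf* itself had 3553, 3994 and 3894 normalized counts in WT and 2484, 2684 and 2638 in hnRNPL-deficient libraries (log2 fold change -0.55, limma adjusted p = 0.0095). *Cd40*, the receptor of T cell help, had 4914, 6922 and 6116 in WT and 3874, 4714 and 3873 in hnRNPL-deficient libraries (log2 fold change -0.52, limma adjusted p = 0.0533). In both genes every hnRNPL-deficient library was below every WT library, by less than 1.5-fold on average. *Nfkbia* (-0.44) and *Tnfaip3* (-0.54), inhibitors of NF-κB signalling that NF-κB itself induces, were also lower. *Fadd*, the adaptor of the death receptors, was higher (0.41). Of the 37 adaptors, kinases, NF-κB subunits, ubiquitin regulators and proteases of the list, none was called by limma. At an adjusted p under 0.1 regardless of fold 1 was higher and 6 were lower, and 14 had an unadjusted p under 0.05, which 27.4% of all genes tested had. edgeR and DESeq2, run on 5 libraries, each called 1 of them lower, *Rela*, a subunit of NF-κB (limma log2 fold change -0.51, adjusted p = 0.0993). *Cd40lg*, *Fasl*, *Cd70*, *Eda*, *Cd27*, *Ltbr*, *Edar* and *Eda2r* were below the filter. Of these, the groups of *Cd70*, *Eda* and *Eda2r* did not overlap, at low counts, which was noticed after their values were seen. *Eda2r* had 4.64, 0 and 0.765 normalized counts in WT and 28.8, 9.09 and 6.85 in hnRNPL-deficient libraries. With no filter it was called higher (log2 fold change 2.63, limma adjusted p = 0.0667). *Cd70* was also higher, and *Eda* was lower.

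The sorted cells could hold RNA of other cell types that express these ligands and receptors, and in a bulk library fewer cells of a type and less RNA per cell cannot be told apart. T cell markers, 8 genes, summed to 27.5 to 32.9 normalized counts in WT and 32.3 to 43.9 in hnRNPL-deficient libraries. *Trbc1* was at 0 in all libraries, *Cd3e* and *Cd4* were at most 1.80, and 6 of the 8 were under 10 everywhere. Most of the sum was *Trac*, with 13.9, 18.2 and 17.6 in WT and 21.6, 25.2 and 32.9 in hnRNPL-deficient libraries, where every hnRNPL-deficient library was above every WT library (log2 fold change 0.64, limma adjusted p = 0.256). NK cell markers, 4 genes, summed to at most 0.765 in WT and to 1.37 to 8.11 in hnRNPL-deficient libraries, with *Ncr1* at 0. The part of T or NK cells in the ligand and receptor values was not tested.

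Macrophage and monocyte markers, 6 genes, summed to 262 to 331 in WT and 1241 to 1382 in hnRNPL-deficient libraries. Nearly all of this was *Adgre1* (278 ± 39.9 and 1308 ± 80.1), while *Lyz2* was at most 2.02 and *Cd14* at most 1.01. Dendritic cell markers, 5 genes, summed to 648 to 787 and 637 to 685, with *Itgax* and *Siglech* at 0. Among them *Xcr1* was called higher, at 8.12 to 9.51 in WT and 21.6 to 27.4 in hnRNPL-deficient libraries (log2 fold change 1.35, limma adjusted p = 0.037). Its WT mean of 8.94 is below the filter of 10, so *Xcr1* was tested only because its hnRNPL-deficient values are high. Granulocyte and mast cell markers, 5 genes, summed to at most 7.21 in any library, with *S100a8* and *S100a9* at 0, and erythroid markers, 4 genes, to 5.19 to 18.6 in WT and 16.2 to 27.3 in hnRNPL-deficient libraries. Stromal and endothelial markers, 4 genes, summed to 2644 to 2772 and 3763 to 4478, from *Pecam1* and *Cdh5*, while *Col1a1* and *Pdgfrb* were at most 2.02. *Cdh5* was called higher (log2 fold change 1.33, limma adjusted p = 0.0049). Plasma cell markers, 4 genes, summed to 19307 to 26990 and 19077 to 22312, nearly all of it *Irf4* and *Prdm1*. *Jchain* was called lower, with 117, 109 and 26.0 in WT and 23.4, 7.07 and 13.7 in hnRNPL-deficient libraries (log2 fold change -2.31, limma adjusted p = 0.0509). The part of cells bearing *Adgre1*, *Xcr1*, *Pecam1*, *Cdh5* or *Jchain* in the ligand and receptor values was not tested.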

How the data were processed

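Sequenced RNA from 3 WT and 3 hnRNPL-deficient mice was grouped by the submitters' titles and genotypes. The authors trimmed reads with fastp 0.23.1, aligned them with STAR 2.7.9a to mm10, counted them per gene by strand with featureCounts on GENCODE and divided the counts by DESeq2 1.38.2 size factors. The deposited signal per gene is thus a normalized count, which can be fractional. The deposited table also holds the authors' own DESeq2 comparison (mean, log2 fold changes with errors, p-values raw and adjusted, and a test score). None of that was used. Size factors take most genes as unchanged in sum, so a global shift of RNA content would not show.

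Values were tested with limma 3.58.1 (R 4.3.3, mean-variance trend) on log2(normalized count + 1), over the 17640 genes that averaged 10 or more normalized counts, with Benjamini-Hochberg adjustment over all of them, two-sided. Genes were called at an adjusted p under 0.1 and at least 1.5-fold. Fold changes are on that log2 scale, which understates changes of low genes. Each library is 1 mouse. For 1 gene alone, exact permutation of 3 against 3 libraries cannot go below p = 0.1. In every library 100% of values were whole multiples of the value of 1 read (tolerance 0.01 reads), so reads were recovered. edgeR 4.0.16 (quasi-likelihood, 1144 higher and 578 lower genes) and DESeq2 1.42.0 (1180 and 721) were run on the reads of 5 libraries, a choice made after seeing the data. hnRNPL-deficient library 2 was left out there although its values were whole multiples too. Its value of 1 read, 1.01, is close to 1, and an automatic check did not accept its values as recovered reads. Scripts were tested on simulated data.

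The members and gene lists were chosen with earlier results of these data known. All symbols matching the family pattern are accounted for. Values in every library are given for called members, members with a mean of at least 10 and partners of called members, and called genes of the wider list are named. Alternatives were pseudocounts of 0.5 and 5, no filter, a minimum mean of 50, equal totals, quantile normalization, no trend, other thresholds, the replicate number as a block and each library left out. Coordinates, exon lengths and transcripts come from GENCODE on GRCm38, an earlier release than the authors'. Intervals cover counting error only. The summed level of the B cell marker list is not reported here.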

Additional observations from a re-analysis of the deposited data

How the results depend on the processing

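The 2 ligands and 3 receptors that rose were the same in number under every alternative except 3 kinds. With a minimum mean of 50, 1 ligand was higher, since *Tnfsf4* was no longer tested. With no filter 4 receptors were higher, *Tnfrsf11a* being added. Leaving out 1 library gave 2 to 2 ligands and 2 to 3 receptors higher. The members that fell were less stable. Ligands lower numbered 0 with no filter, 0 at an adjusted p under 0.05 and 2-fold, 0 with edgeR and 0 to 0 with a library left out. Receptors lower numbered 0 with no trend, 0 at the stricter thresholds, 3 with no fold minimum, 0 with edgeR and 0 to 2 with a library left out. Wider pathway genes higher numbered 2 with no filter, 2 with no fold minimum and 1 to 2 with a library left out, and those lower 0 at the stricter thresholds, 9 with no fold minimum, 3 with edgeR, 3 with DESeq2 and 1 to 4 with a library left out, the most without WT library 1, where *Tnf*, *Cd40* and *Rela* joined *Lta*. Except where fewer genes or libraries enter or the threshold itself differs, the cause was not tested.

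Over 24 genes and all alternatives 426 single-gene values were computed. Of these 394 kept their direction and side of the threshold, 15 lost a call, 3 gained one and 14 turned their sign. The turned signs were of genes near 0. With equal totals the log2 fold change was 0.0432 for *Tnfrsf12a*, 0.0309 for *Tnfrsf4* and 0.00031 for *Tnfsf13b*, which was 0.0789 with edgeR and 0.0707 with DESeq2. With a library left out these 3 ranged from -0.19 to 0.34, from -0.30 to 0.17 and from -0.44 to 0.24. Over all genes the thresholds of 0.05 and 2-fold gave 610 higher and 216 lower genes, no fold minimum gave 1406 lower genes, and leaving out WT library 3 gave 850 higher genes.

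Libraries with the same replicate number need not belong together. The correlations of their deviations from the group means were 0.43, 0.32 and 0.066, and WT library 3 correlated best with hnRNPL-deficient library 2. With the replicate number as a block, 2 ligands were higher and 1 lower, 3 receptors were higher and 1 lower, 1 wider pathway gene was higher and 1 lower, and over all genes 1755 were higher and 1018 lower. Depth limits the members with few reads, among them *Tnfsf4* and *Tnfsf8* in WT and *Tnfrsf11a*.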
